A study of Mus musculus with 7 samples.

Results

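A panel of 10 p53 target and growth-arrest genes was followed in muscle that lacks fast myosin binding protein C, namely *Phlda3*, *Cdkn1a*, *Mdm2*, *Ccng1*, *Bax*, *Trp53inp1*, *Trp53inp2*, *Sesn1*, *Gadd45a* and *Eda2r*. The members were chosen by name as p53 target and growth-arrest genes, after the low level of *Phlda3* in the C2-/- libraries had been seen in these data. Whether p53 acts on each of them in this muscle was not tested. All 10 of the 10 names were among the 12239 genes measured. The list thus began from values of the C2-/- against WT contrast. The members' values, threshold calls and counts in that contrast are therefore a description and not a test. No p-value is printed for any member. The panel did not move as one. In C2-/- muscle *Gadd45a*, *Eda2r*, *Mdm2*, *Cdkn1a* and *Ccng1* were 1.63 to 2.66 times the WT level, *Phlda3*, *Bax* and *Trp53inp2* were 0.24 to 0.62 times the WT level, and *Trp53inp1* and *Sesn1* overlapped the WT libraries. *Bax* and *Trp53inp2* were lower as *Phlda3* was, and 5 members were higher, in a contrast where 45.2% of all genes were called and 49.3% had genotypes that did not overlap. Of these 8 members, 5 were no longer past the threshold after a correction for the GC content of transcripts, and *Gadd45a*, *Mdm2* and *Cdkn1a* were still higher. *Trp53inp1* was lower past the threshold after the correction. Of all genes 20.6% were then called, 12.3% higher and 8.32% lower.

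The transcription factor p53, encoded by *Trp53* in the mouse, is stabilised by DNA damage and other stresses and binds response elements near its target genes. Its targets halt the cell cycle, repair DNA, open mitochondria for apoptosis or restrain growth signalling, and some of them, *Mdm2* above all, switch p53 off again in a feedback loop. In skeletal muscle the same genes are known from denervation, disuse and ageing, where *Gadd45a*, *Cdkn1a* and *Eda2r* are commonly followed as stress transcripts.

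RNA was sequenced from the tibialis anterior muscle (TA) of the shin, which is made mostly of fast fibres, of male FVBN mice aged 5 to 6 months. The 4 WT libraries were FVBN animals with an intact *Mybpc2* gene, and the 3 C2-/- libraries were FVBN animals in which a Neo cassette between LoxP sites stands in place of exons 2 to 22 of *Mybpc2*, the gene of the fast-twitch myosin binding protein C. The labels name no Cre, no treatment and no pooling for either genotype, and p-values measure the spread between these libraries. *Mybpc2* itself was at 12.61 ± 0.19 (SD, n = 4) in WT and 0.79 ± 1.12 (SD, n = 3) in C2-/- on the log2 scale defined next, and every C2-/- library was lower than every WT library. Values are log2 CPM, that is counts per 1e+06 reads, scaled by TMM, a normalization that adjusts the library sizes by a trimmed mean of the log ratios between libraries. The median change of all genes was -0.14 in these values and 0.021 when the libraries were instead centred on their medians, so a change is best read against that median. A gene is called past the threshold where the limma adjusted p was under 0.05 and the fold over 1.5.

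The libraries were unequal in depth. WT1, WT2 and WT3 held 14929214 to 15464499 reads in the table, while WT4 and the 3 C2-/- libraries held 2613277 to 4917936, and the change between genotypes followed the GC content of the transcript (Spearman's rho = -0.68 across 12169 genes, which are not independent replicates). Some marker sums differed between the genotypes, though the shares of marker genes called are to be read against 45.2% of all genes called in the deposited values and 20.6% after the GC correction. The summed level of 12 fast fibre markers ranged from 217056 to 252318 CPM in WT and from 113085 to 173598 CPM in C2-/- (6 of 12 past the threshold, all lower, and after the GC correction described next 1 higher and 2 lower), with *Myh4* and *Acta1* abundant in every library. The summed level of 7 fibroblast markers ranged from 564 to 990 CPM in WT and from 1926 to 2484 CPM in C2-/- (6 of 7 past the threshold, all higher, and 4 of 7 after the correction). The summed level of 3 adipocyte markers, nearly all of it *Fabp4*, ranged from 157 to 360 CPM in WT and from 466 to 632 CPM in C2-/-, and *Fabp4*, the 1 marker called, was at 1.47 and after the correction at 0.42, not past the threshold, where *Plin1* was past it at 3.81. The sum of 8 endothelial markers ranged from 417 to 633 CPM in WT and from 309 to 413 CPM in C2-/-, with 3 of 8 past the threshold, all lower. After the correction the smallest limma adjusted p among them was 0.111 (*Tie1*, change -0.54). The summed levels of macrophage, satellite cell, Schwann cell and smooth muscle markers overlapped between the genotypes, while *Alas2*, the 1 red blood cell marker measured, ranged from 4.21 to 5.18 CPM in WT and from 1.14 to 2.24 CPM in C2-/-. The parts of depth and of these cell types in the members' values were not tested, and in whole muscle a smaller share of a cell type cannot be told apart from less RNA per cell. For that reason each member is also given against WT4, the WT library of a depth like that of the C2-/- libraries, and after a GC correction that removes each library's own trend of level on GC content.

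The canonical p53 decamer, the 10-base unit from which a p53 response element is built in pairs, was found in 6 members within the window of 250 bases before a RefSeq start site (build GRCm38.p6). These windows are shown because p53 binds response elements near its target genes, and binding itself was not measured. The decamer is in capitals, and it reads the same way on both strands of the motif, so each match counts once.
Cdkn1a, chr17:29090886-29090957, plus strand: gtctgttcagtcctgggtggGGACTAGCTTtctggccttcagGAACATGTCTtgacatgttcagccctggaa
Mdm2, chr10:117710910-117710969, minus strand: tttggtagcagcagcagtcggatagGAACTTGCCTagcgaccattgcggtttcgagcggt
Ccng1, chr11:40755437-40755496, minus strand: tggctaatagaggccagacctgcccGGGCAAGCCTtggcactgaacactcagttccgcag
Gadd45a, chr6:67037413-67037472, minus strand: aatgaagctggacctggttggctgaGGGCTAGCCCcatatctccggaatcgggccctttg
Bax, chr7:45467065-45467124, minus strand: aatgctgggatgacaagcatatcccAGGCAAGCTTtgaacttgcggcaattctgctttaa
Sesn1, chr10:41887241-41887300, plus strand: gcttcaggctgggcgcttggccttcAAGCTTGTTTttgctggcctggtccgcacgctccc
The decamers began 73 and 51 bases before the start in *Cdkn1a*, 186 in *Mdm2*, 185 in *Ccng1*, 40 in *Gadd45a*, 201 in *Bax* and 173 in *Sesn1*. Each distance is to the RefSeq start of that window. The decamers of *Gadd45a* and *Sesn1* lie inside the gene spans given below for these genes. *Cdkn1a* was the only member with 2 decamers no more than 13 bases apart, as 18 of 27025 genes with a window had (0.0666%). A decamer was present in 6 of the 9 members with a window (66.7%), against 2216 of 27025 genes (8.20%). *Phlda3*, *Eda2r* and *Trp53inp2* had no match in the window, and *Trp53inp1* was not analysed for it. The 6 genes with a match included 4 that were higher in C2-/- muscle (*Cdkn1a*, *Mdm2*, *Ccng1* and *Gadd45a*), 1 that was lower (*Bax*) and 1 past the threshold in neither direction (*Sesn1*).

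The members also differ widely in base composition, and a coding stretch from each end of that range is shown with every G and C in capitals (GRCm38).
Phlda3, chr1:135766449-135766598, plus strand, exon 1 of 2: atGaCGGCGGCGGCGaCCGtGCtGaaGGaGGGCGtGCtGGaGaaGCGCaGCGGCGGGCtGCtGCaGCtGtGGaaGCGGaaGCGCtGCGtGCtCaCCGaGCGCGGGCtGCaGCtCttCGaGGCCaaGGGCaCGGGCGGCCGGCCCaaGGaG
Ccng1, chr11:40753919-40754068, minus strand, exon 2 of 6: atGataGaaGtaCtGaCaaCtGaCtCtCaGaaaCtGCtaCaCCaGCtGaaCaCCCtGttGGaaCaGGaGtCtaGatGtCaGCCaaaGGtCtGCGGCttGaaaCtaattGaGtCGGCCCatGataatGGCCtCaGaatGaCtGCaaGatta
The stretch of *Phlda3* is 72.7% G and C and that of *Ccng1* 46.0%. Over the whole transcript GC content was 62.6% for *Phlda3*, with 1.22% of genes above it, and 63.5% for *Bax*, with 0.707% above. It was lowest in *Trp53inp1* at 38.8%, *Ccng1* at 40.8% and *Eda2r* at 40.9%, and intermediate in *Mdm2* at 46.2%, *Gadd45a* and *Sesn1* at 49.8%, *Trp53inp2* at 52.6% and *Cdkn1a* at 54.4%. These values are for a single transcript of each gene, the longest protein-coding one. The median over all protein-coding transcripts was 59.2% for *Bax*, 44.3% for *Eda2r* and 55.9% for *Trp53inp2*.

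**Figure D1:**
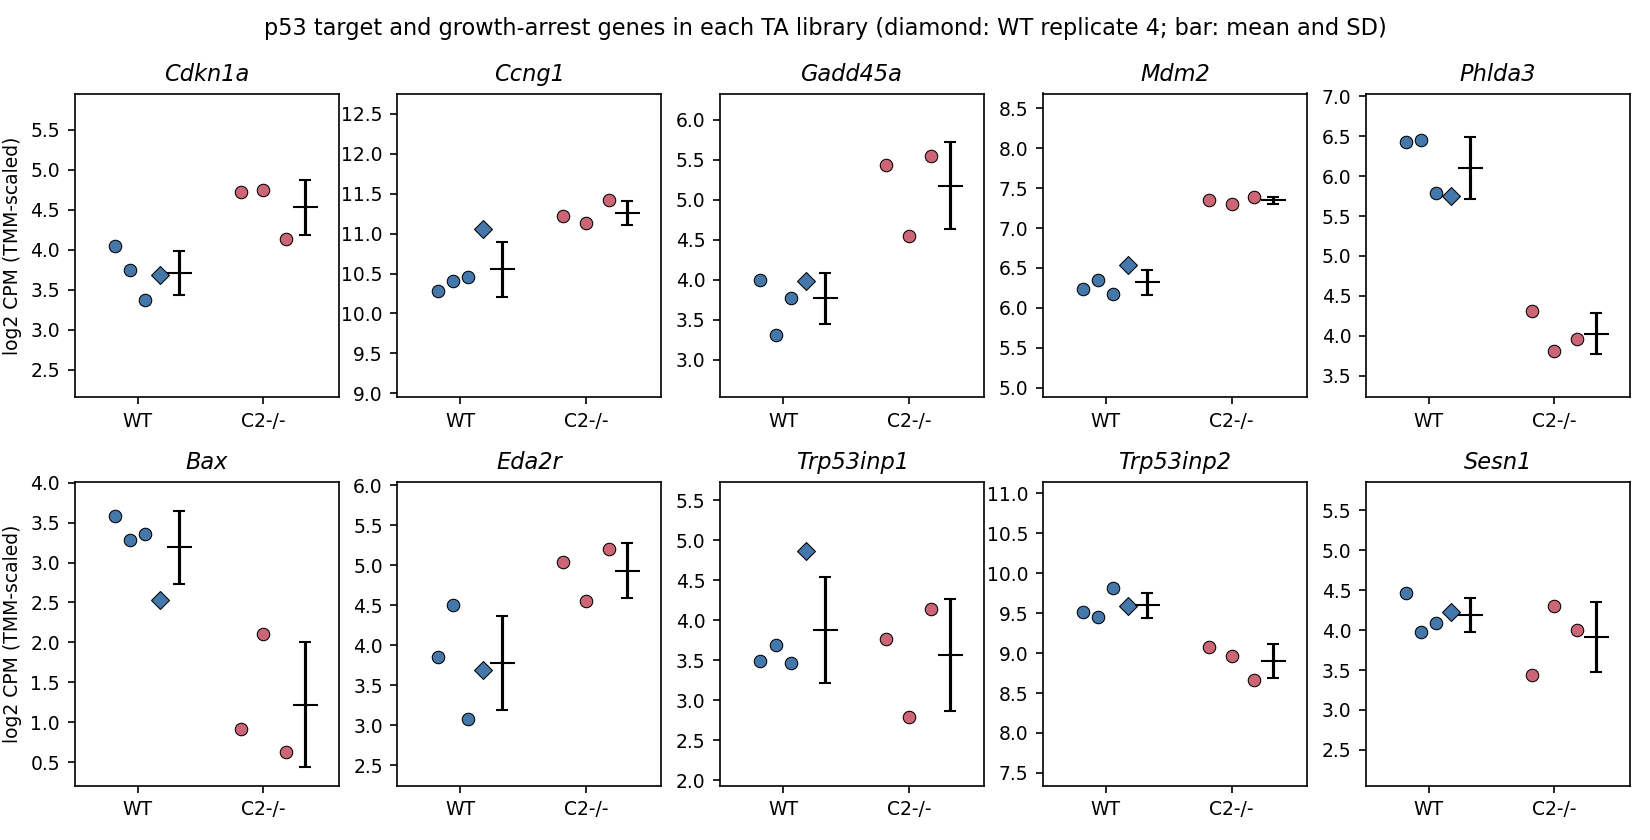
Level of each of the 10 genes in each TA library, as log2 CPM on the vertical axis, with every panel spanning the same range of log2 units. Points are libraries (blue WT, red C2-/-, diamond WT4) and bars give the mean and SD; the C2-/- points sit wholly above the WT points in 5 panels and wholly below in *Phlda3*, *Bax* and *Trp53inp2*.

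The first 3 members act on the cell cycle. *Cdkn1a* (chr17:29090976-29100727, plus strand) encodes p21, an inhibitor of cyclin-dependent kinases that holds cells in G1. It was at 4.05, 3.74, 3.37 and 3.68 log2 CPM in WT1 to WT4 and at 4.72, 4.74 and 4.13 in C2-/- replicates 1 to 3. All C2-/- libraries lay above all WT libraries, the closest pair being WT1 and C2-/- replicate 3. The mean difference in level was 0.82 on the log2 scale (SE 0.28), 1.76 times the WT level, and 0.85 against WT4 alone. It grew to 1.75 (SE 0.29) after the GC correction. *Cdkn1a* had a GC content at which genes had on average a change of -0.93, and 95.0% of the genes in its GC decile had a change more negative than its own. Without WT replicate 2 or 3, or C2-/- replicate 1 or 2, the difference stayed between 0.70 and 0.83 but was no longer past the threshold. Of its exonic bases 7.68% are shared with an opposite-strand transcript.

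*Gadd45a* (chr6:67035096-67037457, minus strand) encodes a small stress sensor of the growth arrest and DNA damage family. Its levels were 4.00, 3.31, 3.77 and 3.98 log2 CPM in WT1 to WT4 and 5.43, 4.55 and 5.55 in C2-/-. No C2-/- library reached down to a WT library. The difference was 1.41 (SE 0.31), 2.66 times the WT level, 1.19 against WT4, and 1.55 (SE 0.29) after the GC correction. Its transcript had a GC content near the middle of the range, where the median change of the decile was 0.011. *Gadd45a* was the only member past the threshold in the same direction under each of the 26 alternative settings tried, from 1.22 to 1.82. Of its exonic bases 19.1% are shared with an opposite-strand transcript, and whether the counting used strand is not given in the sources used here.

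*Ccng1* (chr11:40748552-40755311, minus strand) encodes cyclin G1, a partner of protein phosphatase 2A in the regulation of Mdm2. It was at 10.28, 10.41, 10.45 and 11.06 log2 CPM in WT1 to WT4 and at 11.22, 11.13 and 11.42 in C2-/-. The groups did not overlap, but WT4 lay closer to the C2-/- libraries than to the other WT libraries. The difference was 0.71 (SE 0.22), 1.63 times the WT level, but only 0.20 against WT4. In the GC-corrected values it was -0.29 (SE 0.17) and not past the threshold. Without WT replicate 1, 2 or 3, or C2-/- replicate 3, it was 0.62 to 0.68 and not past the threshold.

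*Mdm2* (chr10:117688875-117710758, minus strand) encodes the ubiquitin ligase that marks p53 for degradation and is itself a p53 target. It was at 6.24, 6.35, 6.18 and 6.53 log2 CPM in WT1 to WT4 and at 7.34, 7.30 and 7.39 in C2-/-. Both groups were tight, with an SD of 0.16 in WT and 0.042 in C2-/-, and well apart. The difference was 1.02 (SE 0.15), 2.03 times the WT level, 0.81 against WT4, and 0.64 (SE 0.14) after the GC correction, still past the threshold. In a GC correction with the median GC content of the gene's transcripts it was 0.54, under the fold of 1.5.

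The genes that act on survival and apoptosis were split. *Phlda3* (chr1:135766119-135769136, plus strand) encodes a pleckstrin homology domain protein that keeps Akt from the membrane. It was at 6.42, 6.46, 5.78 and 5.75 log2 CPM in WT1 to WT4 and at 4.31, 3.81 and 3.97 in C2-/-, from 236 to 1316 reads in WT and 37 to 75 reads in C2-/-. Every C2-/- library lay more than 1 log2 unit under every WT library. The difference was -2.08 (SE 0.25), 0.24 times the WT level, and -1.72 against WT4. Genes of the same GC content changed by -1.91 on average, and 36.2% of the genes in its GC decile had a more negative change than *Phlda3*. Its GC-corrected levels were 5.50, 5.49, 4.73 and 5.40 in WT1 to WT4 and 4.99, 5.31 and 5.05 in C2-/-, the groups overlapped, and the difference was -0.16 (SE 0.23), not past the threshold.

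*Bax* (chr7:45461697-45466898, minus strand) encodes a pore-forming protein of the outer mitochondrial membrane. It was at 3.58, 3.28, 3.36 and 2.54 log2 CPM in WT1 to WT4 and at 0.92, 2.11 and 0.63 in C2-/-. These levels rest on 25 to 183 reads in WT and on only 5, 11 and 7 reads in C2-/-, and WT4 was the lowest of the WT libraries. The difference was -1.97 (SE 0.48), 0.26 times the WT level, and -1.32 against WT4. It was 0.015 (SE 0.52) after the GC correction, and genes of its GC content changed by -1.98 on average. *Bax* lies 0.937 Mb from *Mybpc2* on the same chromosome and shares 12.2% of its exonic bases with a same-strand gene, Gm45808.

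*Eda2r* (chrX:97333840-97377216, minus strand) encodes a receptor of the tumour necrosis factor family that binds ectodysplasin A2. Its levels were 3.85, 4.5, 3.08 and 3.68 log2 CPM in WT1 to WT4 and 5.04, 4.55 and 5.21 in C2-/-. The groups did not overlap, although WT2 and C2-/- replicate 2 nearly met. The difference was 1.15 (SE 0.34), 2.22 times the WT level, 1.25 against WT4, and 0.17 (SE 0.34) after the GC correction. It was 0.92 without WT replicate 3, 1.10 without C2-/- replicate 1 and 1.02 without C2-/- replicate 3, each time not past the threshold.

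The last 3 members act on autophagy and growth signalling. *Trp53inp1* (chr4:11156431-11174379, plus strand) encodes a stress-induced protein that works with p53 and in autophagy. It was at 3.49, 3.69, 3.46 and 4.87 log2 CPM in WT1 to WT4 and at 3.76, 2.79 and 4.15 in C2-/-, so WT4 was the highest of all libraries and the groups overlapped. The difference was -0.31 (SE 0.44), -1.30 against WT4 alone, and 0.018 in the fit without WT4. Low-GC genes such as this one changed by 1.21 on average, and only 3.62% of the genes in its GC decile had a more negative change. In the GC-corrected values *Trp53inp1* was at 4.08, 4.27, 4.14 and 5.11 in WT and at 3.16, 2.04 and 3.42 in C2-/-, and the difference of -1.53 (SE 0.40) passed the threshold, as the only member to do so downwards. It was no longer past the threshold in the GC-corrected values without WT replicate 2 or C2-/- replicate 2.

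*Trp53inp2* (chr2:155381059-155389850, plus strand) encodes a nuclear cofactor that also takes part in forming autophagosomes. It was at 9.52, 9.46, 9.82 and 9.59 log2 CPM in WT1 to WT4 and at 9.08, 8.97 and 8.67 in C2-/-. The groups did not overlap. The difference was -0.69 (SE 0.17), 0.62 times the WT level, and -0.69 against WT4 as well. It was -0.083 (SE 0.16) after the GC correction, and -0.58 without C2-/- replicate 3 and -0.53 when the libraries were centred on their medians, both under the fold of 1.5.

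*Sesn1* (chr10:41809935-41908424, plus strand) encodes sestrin 1, which restrains the growth kinase complex mTORC1. It was at 4.47, 3.98, 4.08 and 4.23 log2 CPM in WT1 to WT4 and at 3.44, 4.30 and 4.00 in C2-/-. The groups overlapped, with C2-/- replicate 1 the lowest of all libraries at 31 reads. The difference was -0.28 (SE 0.28), -0.32 against WT4, and -0.14 (SE 0.29) after the GC correction.

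Counted over the panel, 8 of 10 members were past the threshold, 5 higher and 3 lower, in a contrast where 45.2% of all genes were called, 20.2% higher and 25.0% lower. These counts are a description, since the list began from this contrast. The libraries of the genotypes did not overlap in 8 of 10 members, 5 above and 3 below, against 49.3% of all genes, 22.6% above and 26.7% below. The median change of the members was 0.22, against -0.14 over all genes. After the GC correction 4 of 10 members were past the threshold, against 20.6% of all genes, namely *Cdkn1a*, *Mdm2* and *Gadd45a* higher (12.3% of all genes) and *Trp53inp1* lower (8.32%). The median change was then -0.034 for the members and 0.019 for all genes, and the libraries of the genotypes did not overlap in the same 4 members, against 33.4% of all genes. Without WT4 the same 8 members were past the threshold as with it, 5 higher and 3 lower, against 50.1% of all genes, 23.5% higher and 26.6% lower. Across the 10 members the change ran against GC content with a Spearman's rho of -0.50, as a description. The members in the top GC decile, *Phlda3* and *Bax*, were lower, as were 64.7% of the genes in that decile, and of the 3 members in the bottom decile *Ccng1* and *Eda2r* were higher, as were 63.6% of the genes there.

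**Figure D2:**
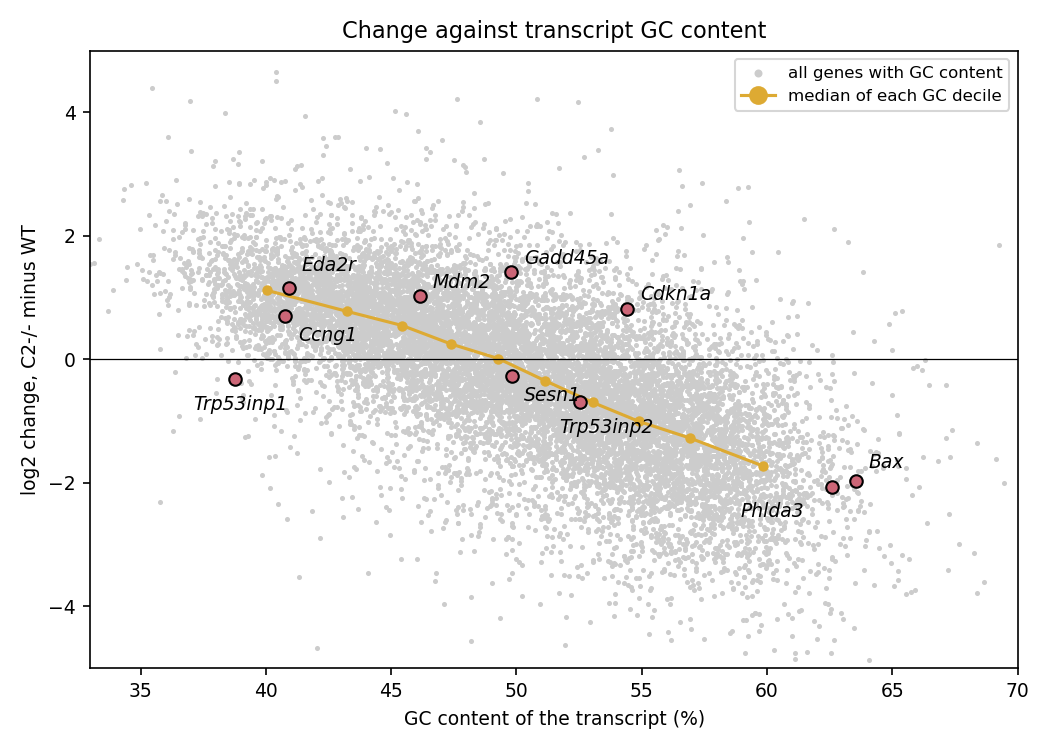
Change of each gene (log2, C2-/- minus WT, vertical axis) against the GC content of its transcript in percent (horizontal axis). Grey points are the genes with a GC content, 10 of which lie outside the axes, the yellow line joins the median change of each GC decile, and red points are the 10 members. *Phlda3*, *Bax*, *Trp53inp2*, *Sesn1*, *Eda2r* and *Ccng1* sit near the line, *Cdkn1a* and *Gadd45a* above it, *Mdm2* somewhat above it and *Trp53inp1* below it.

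**Figure D3:**
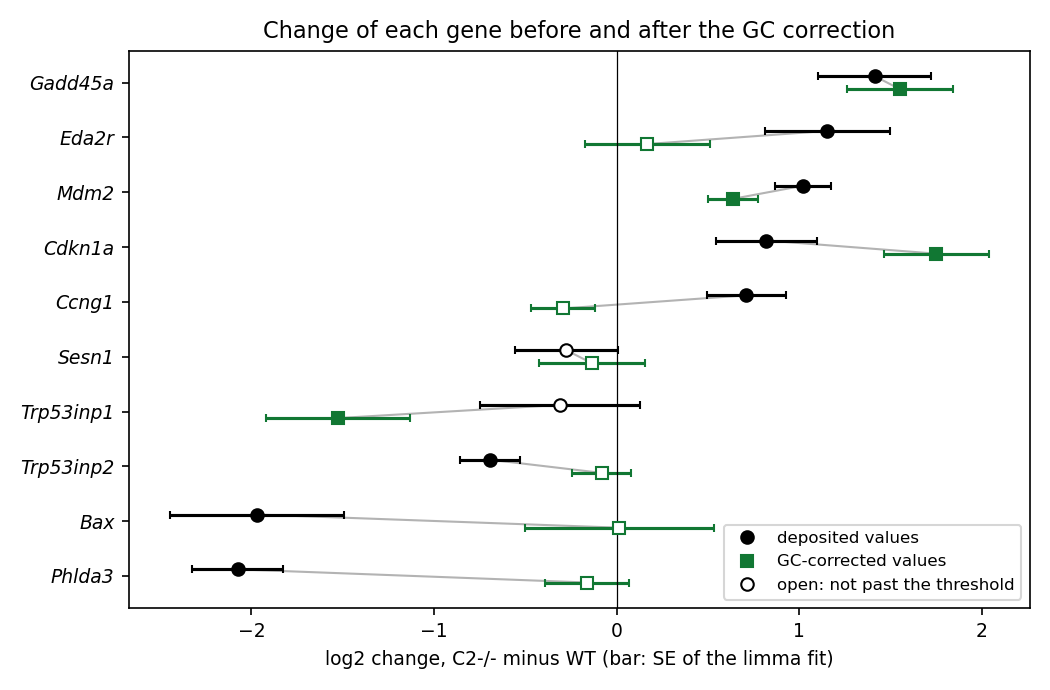
Change of each member (log2, C2-/- minus WT, horizontal axis) in the deposited values (black) and after the GC correction (green), with bars for the SE of the limma fit and open symbols for changes not past the threshold. *Gadd45a*, *Mdm2* and *Cdkn1a* remain filled and to the right of 0, while *Phlda3*, *Bax*, *Trp53inp2*, *Ccng1* and *Eda2r* move to between -0.29 and 0.17.

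Per length of transcript, in log2 CPM per kb, *Ccng1* was the most abundant member in WT muscle at 8.74 ± 0.35 (SD, n = 4), followed by *Trp53inp2* at 7.60 ± 0.16, *Phlda3* at 5.58 ± 0.39 and *Mdm2* at 4.67 ± 0.16. Each of these lay above the next by more than their SDs summed. *Gadd45a* (3.48 ± 0.32), *Bax* (3.05 ± 0.45), *Cdkn1a* (2.65 ± 0.28), *Sesn1* (2.26 ± 0.21), *Eda2r* (1.53 ± 0.59) and *Trp53inp1* (1.45 ± 0.67) followed, and neighbours in this lower run differed by less than their SDs summed. In C2-/- muscle *Mdm2* at 5.69 and *Gadd45a* at 4.89 stood above *Phlda3* at 3.51, *Cdkn1a* at 3.47 was close to *Phlda3*, and *Bax* at 1.08 and *Trp53inp1* at 1.13 were the lowest, closer than their SDs (0.78 and 0.70, n = 3). By coding length in place of transcript length the WT order of the 4 most abundant members was the same and that of the lower 6 was not. *Trp53inp1* then stood above *Bax*, at 4.36 against 4.14. In the GC-corrected values *Phlda3* was at 4.76 ± 0.37 (SD, n = 4) per kb in WT, next to *Mdm2* at 4.84 ± 0.10, and at 4.6 in C2-/-, where *Mdm2* was at 5.47 and *Gadd45a* at 4.97. *Bax* was at 2.22 and *Trp53inp1* at 0.44 in C2-/- after the same correction.

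**Figure D4:**
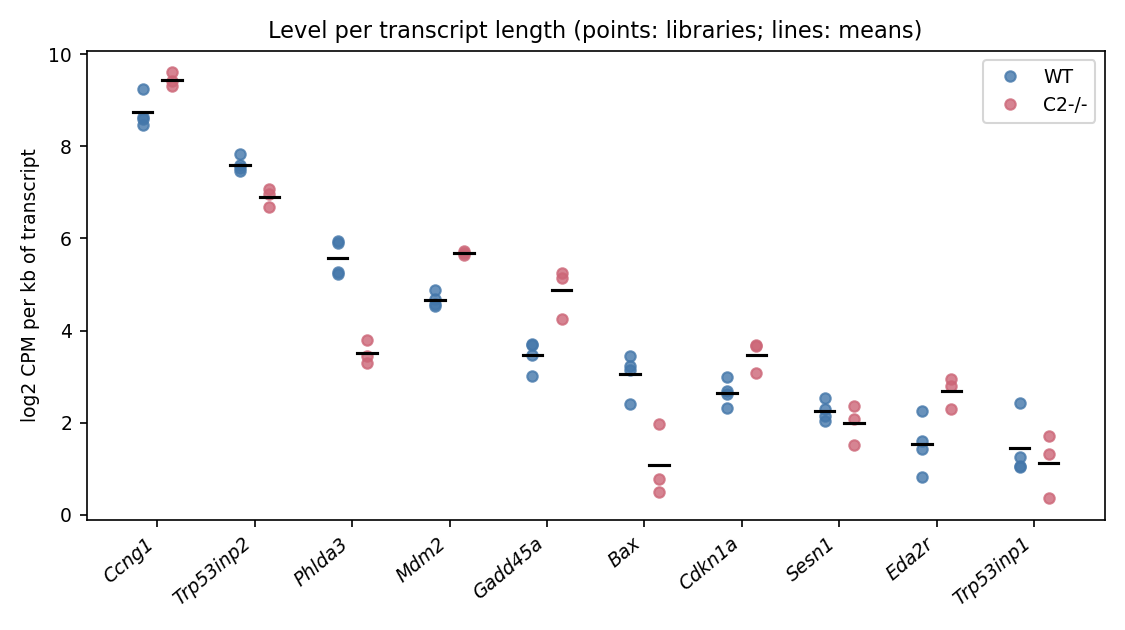
Level of each member per length of transcript (log2 CPM per kb, vertical axis), in order of the WT mean. Points are libraries (blue WT, red C2-/-) and lines are means; *Phlda3* stands above *Mdm2* and *Gadd45a* in the WT means and below both in the C2-/- means of these values, which are not GC-corrected.

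The profile of *Phlda3* over the 7 libraries, each gene centred on its own mean, was nearest to those of *Rmdn3*, *Rtfdc1*, *Scamp2*, *Flnc* and *Egln2*, at Euclidean distances of 0.34 to 0.56 log2 units, where the median over all genes was 3.12. None of these is a member. Of the members, *Bax* was nearest at 1.5 log2 units, with 9.88% of genes nearer, then *Trp53inp2* at 2.05 with 22.0% nearer. *Gadd45a* was farthest at 4.72, with 89.1% of genes nearer. The nearest genes include both kinds of response to the GC correction, since *Egln2*, at a GC content of 62.2%, went from -2.09 to -0.21, while *Rmdn3*, at 52.7%, went from -2.07 to -1.43.

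Beyond the panel, 40 of 46 other listed p53 targets were measured, and 7 rose and 7 fell past the threshold, with a median change of -0.20, against 20.2% of all genes higher and 25.0% lower and a median of -0.14. The largest rises were in *Gls2*, a mitochondrial glutaminase, at 2.80 (SE 0.61, limma adjusted p = 0.00511) and *Rps27l*, a ribosomal protein S27 relative, at 2.46 (SE 0.58, adjusted p = 0.00702). The largest falls were in *Fdxr*, a mitochondrial electron carrier reductase, at -3.16 (SE 0.70, adjusted p = 0.00524) and *Dcxr*, a sugar reductase, at -2.64 (SE 0.79, adjusted p = 0.021). *Gls2* was at 1.44, 0.98, 1.08 and 3.63 log2 CPM in WT1 to WT4 and at 5.04, 4.5 and 4.21 in C2-/-, and *Rps27l* at 5.22, 5.47, 5.07 and 7.87 in WT and at 7.99, 8.43 and 8.69 in C2-/-. For both, WT4 stood with the C2-/- libraries rather than with the other WT libraries. *Rps27l* may also share reads with *Rps27* and its copies. *Fdxr* and *Dcxr* had from 0 to 5 reads in each C2-/- library. The call of *Dcxr* was lost without WT replicate 1, 2 or 3, where the change was -2.62, -2.45 and -2.61. With the GC correction neither fall was past the threshold, at -1.48 for *Fdxr* (adjusted p = 0.0968) and -0.94 for *Dcxr* (adjusted p = 0.343). After the GC correction 4 of the 40 rose and 2 fell, against 12.3% and 8.32% of all genes. These were *Gls2* at 4.07, *Ppm1d*, a phosphatase that dampens p53 signalling, at 1.88, *Rps27l* at 1.72 and *Notch1* at 1.66, against *Ptp4a3*, a phosphatase, at -1.23 and *Aen*, a nuclease, at -1.17. In the deposited values *Notch1* was at 0.32 (adjusted p = 0.329) with overlapping libraries. The libraries of *Rps27l* overlapped after the correction, and its C2-/- mean was -0.055 from WT4. *Ppm1d*, *Notch1*, *Ptp4a3* and *Aen* were singled out after their values had been seen.

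Of p53 itself and its regulators 19 of 23 were measured, and 6 rose and 2 fell, with a median change of 0.33, where 45.2% of all genes were called. After the GC correction 2 were higher and 1 lower, where 20.6% of all genes were called, but without WT replicate 4 the corrected count of 3 was 9. The count of 8 was 5 without WT replicate 1, WT replicate 2 or C2-/- replicate 1, and 4 without WT replicate 3 or C2-/- replicate 3. *Trp53* was at 4.59, 4.61, 4.39 and 3.66 log2 CPM in WT1 to WT4 and at 3.13, 1.04 and 2.51 in C2-/-, from 5 to 27 reads in the latter. It fell by 2.08 (SE 0.49, limma adjusted p = 0.00686), and by 1.23 after the GC correction, where it was not past the threshold (adjusted p = 0.0587). *Mdm4*, the partner of Mdm2 in holding p53 down, changed by -0.23 (SE 0.26, adjusted p = 0.483), and by -0.95 after the GC correction, past the threshold (adjusted p = 0.0167). *Atr*, a kinase of the DNA damage checkpoint, rose by 1.21 (SE 0.32, adjusted p = 0.0125), and *Trp63*, a p53 family member, by 1.10 (SE 0.36, adjusted p = 0.03). *Ppp1r13l*, an inhibitor of p53, fell by 1.76 (SE 0.45, adjusted p = 0.00989). The GC-corrected changes of these last 3 were 0.22, 0.48 and 0.15 in turn, none past the threshold. The call of *Trp63* was lost without WT replicate 3, C2-/- replicate 1 or C2-/- replicate 3, where the change was 1.06, 0.87 and 1.05 in turn.

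**Figure D5:**
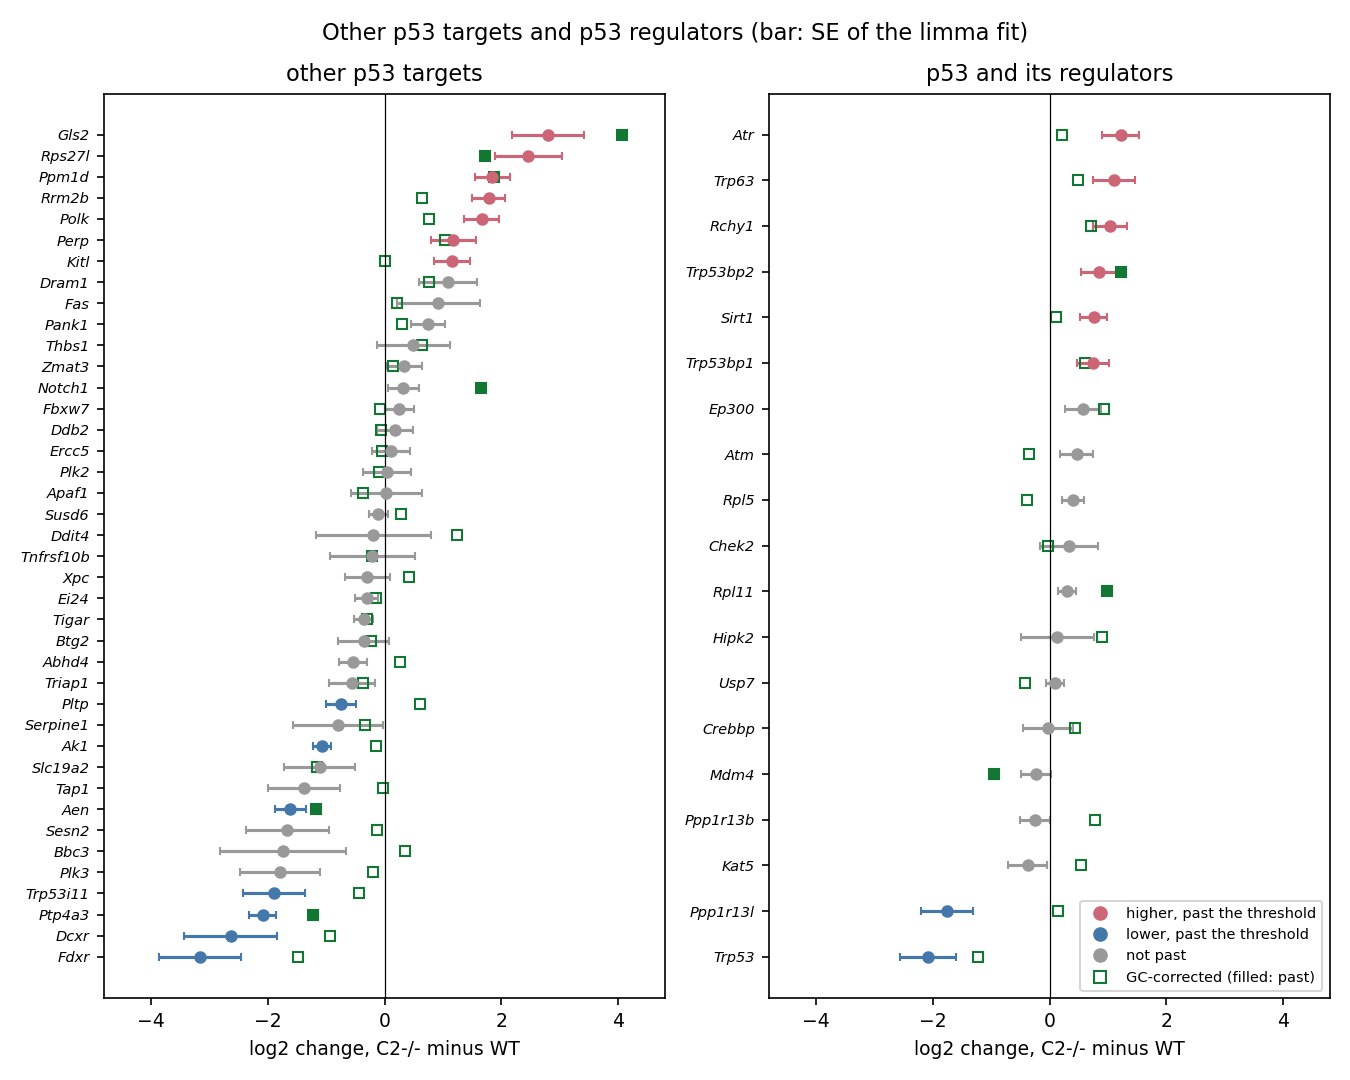
Change (log2, C2-/- minus WT, horizontal axis) of the other measured p53 targets (left) and of p53 and its regulators (right), 1 row a gene. Circles with SE bars are the deposited values, red where higher and blue where lower past the threshold and grey otherwise, and green squares are the GC-corrected values, filled where past it; *Gls2*, *Rps27l* and *Ppm1d* are past the threshold upwards in both, and *Trp53* is lowest on the right.

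Close relatives of the members were listed as well, and 13 of 16 were measured. Of these 13, 3 rose and 2 fell, with a median change of -0.014, where 45.2% of all genes were called. *Cdkn1c*, which encodes p57 of the p21 family, was at 3.87, 4.09, 4.19 and 4.70 log2 CPM in WT1 to WT4 and at 5.81, 6.01 and 6.02 in C2-/-. It rose by 1.73 (SE 0.24, limma adjusted p = 0.000638), and by 3.35 after the GC correction. *Phlda1*, of the family of *Phlda3*, rose by 1.27 (SE 0.33, adjusted p = 0.0114), and by 2.83 after the correction, and so went the other way from *Phlda3*. *Xiap*, an inhibitor of caspases, rose by 1.35 (SE 0.18, adjusted p = 0.000573), but had a difference of -0.065 after the correction. *Bcl2l1*, which encodes Bcl-xL, an opponent of Bax, fell by 2.03 (SE 0.61, adjusted p = 0.021), and the call was lost without C2-/- replicate 1 or 3 and after the correction. The change was then -1.63, -1.58 and -0.87 in turn. *Eda*, which encodes the ligand family of *Eda2r*, fell by 2.62 (SE 0.92, adjusted p = 0.0397) on 0 to 4 reads in each C2-/- library, a call lost without any 1 of the 4 WT libraries and after the correction. Its change stayed large, at -2.50 to -2.71 without a WT library and -2.23 after the correction (adjusted p = 0.105). The relatives *Cdkn1b* (0.60, and -0.15 after the correction), *Ccng2* (-0.087, and -0.50), *Gadd45g* (-0.014, and 1.65) and *Bak1* (-0.24, and 1.09) were not past the threshold in either set of values. *Gadd45b*, at -0.31 in the deposited values, was at 0.99 after the correction and past the threshold there. The uncalled relatives *Bok*, *Bcl2* and *Mcl1* were at -1.97, 0.73 and 0.56 in the deposited values.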

How the data were processed

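The deposited table holds log2 values, made by the authors from gene counts as log2 CPM on TMM-scaled library sizes. Per the labels, reads were aligned with HISAT to GRCm38.p6 and counted with featureCounts 1.5.2, and edgeR and limma were named by the submitters' processing notes. Undoing the scale with a pseudocount of 0.5 reads gave whole reads for 100% of values (tolerance 0.01 reads). A further deposited table of the authors' own comparison (fold changes and p-values per gene) was not used, and no value column of the log2 table was left out. Genes were tested with limma 3.58.1 (trended eBayes, R 4.3.3, genotype only, 7 libraries) with Benjamini-Hochberg adjustment over 12239 genes. For the GC correction, each library's natural spline (5 degrees of freedom) of log2 value on transcript GC content was replaced by the mean spline. GC content and length were matched for 12169 genes (99.4%), 351 through an older symbol. Motif windows and start sites came from RefSeq.

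The members and lists were chosen with earlier results of these data known. Named in the text are all members, up to 2 rises and 2 falls of each other list past the threshold, *Trp53*, *Mdm4*, *Mybpc2*, members' relatives and the 5 genes nearest to *Phlda3*. Outside this rule, some marker genes are named, and *Ppm1d*, *Notch1*, *Ptp4a3* and *Aen* were chosen after their values were seen. A level of 3 reads corresponds to 0.195 to 1.12 CPM by library, which covers counting error only, and 1 to 1030 genes had 0 reads. Alternatives were other scalings, filters, pseudocounts and weights, voom on the recovered reads, and leaving out each library.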

Additional observations from a re-analysis of the deposited data

Results flagged for a closer look

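In 14 sets of 4 WT values tested, among them the members' levels, 1 library stood apart from the other 3 in 2 sets, where chance gives about 1 in 20. *Trp53inp1* was at 4.87 log2 CPM in WT4, against 3.46 to 3.69 in WT1 to WT3. The depth of WT4 also stood apart, at 4683853 reads, where WT1 to WT3 had 14929214 to 15464499 each.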

How the results depend on the processing

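Of the 26 alternatives run, *Gadd45a* kept its call in 26, *Mdm2* in 25, *Cdkn1a* in 21, *Phlda3* in 16, *Trp53inp2* in 14, *Eda2r* in 12 and *Ccng1* in 11, and *Bax* in 15 of 25, and the 10 in which *Phlda3* was not past the threshold were all GC-corrected. Depth limits *Bax* and *Trp53*, at 5 to 11 and 5 to 27 reads in each C2-/- library. With the GC correction the genes past the threshold fell to 2504 of all genes, 4 members, 6 other p53 targets, 3 of p53 and its regulators, 3 relatives and 1 proliferation gene, and with the median GC content of a gene's transcripts to 2644, 3, 8, 4, 6 and 3. Without 1 library each they ranged from 4095 to 6136 of all genes, 5 to 8 members, 11 to 17 other targets, 4 to 9 regulators, 4 to 7 relatives and 4 to 7 proliferation genes, and with the GC correction 3123, 1264, 1246, 1301, 2470, 2266 and 2450 of all genes (without WT4, WT replicates 1 to 3 and C2-/- replicates 1 to 3), and 3 to 4, 5 to 9, 2 to 9, 2 to 5 and 0 to 3. Members fell to 5 without WT replicate 3 and without C2-/- replicate 3. A mean log2 value of at least 3 left 4 proliferation genes past the threshold, from fewer genes tested, and library quality weights gave 8 relatives. With those weights *Cdkn1a* (0.76) and *Eda2r* (1.19) lost their calls, as *Ccng1* (0.71) did without a trend in eBayes.

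Some changes turned direction. *Ccng1* did so in 10 GC-corrected fits, at -0.29 in the main one, -0.39 with median transcript GC and -0.36, -0.32, -0.28, -0.21, -0.31, -0.21 and -0.36 without WT replicates 1 to 4 and C2-/- replicates 1 to 3. *Bax* was at 0.015 with the GC correction, and with it at 0.11 without WT replicate 1, 0.37 without C2-/- replicate 1 and 0.31 without C2-/- replicate 3. *Trp53inp2* was at 0.40 with median transcript GC and 0.0096 in the GC-corrected fit without C2-/- replicate 3, *Eda2r* at -0.021 without WT replicate 3 and *Sesn1* at 0.14 without C2-/- replicate 1, both GC-corrected. *Trp53inp1* was at 0.16 with quality weights, 0.018 without WT replicate 4 and 0.076 without C2-/- replicate 2, from -0.60 without C2-/- replicate 3. The cause was not tested in any of these.

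Samples with the same replicate number did not deviate together, with r = -0.044, -0.021 and -0.054 for the 3 pairs. The fits with a replicate block left out WT4, which has no C2-/- library of the same number. With the block 5929 genes were past the threshold, among them 8 members, 17 other targets, 8 regulators, 7 relatives and 8 proliferation genes. *Trp53inp1* was at 0.018, as without WT4 and no block. With the block and the GC correction there were 2935 genes, 4 members, 8 other targets, 9 regulators, 6 relatives and 2 proliferation genes, and *Ccng1* was at -0.21.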

Other observations

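Of 28 listed proliferation genes, the processes that p21 and its relatives hold back, 12 were measured, and 4 rose and 5 fell, with a median change of -0.68, where 20.2% of all genes were higher and 25.0% lower. After the GC correction 1 of the 12 was past the threshold, with a median of -0.32, where 20.6% of all genes were called. *Mki67*, a nuclear protein of cycling cells, rose by 2.25 (SE 0.68, limma adjusted p = 0.0223) on 3 to 12 reads in each library, and *Ccna2*, cyclin A2, rose by 2.18 (SE 0.45, adjusted p = 0.00396). *Ccna2* was at 2.71, 2.97, 2.18 and 2.97 log2 CPM in WT1 to WT4 and at 3.87, 4.90 and 5.91 in C2-/-, and was the only proliferation gene past the threshold after the GC correction, at 1.80. *Aurka*, a mitotic kinase, fell by 3.12 (SE 0.92, adjusted p = 0.0194), and *Mcm3*, a subunit of the replicative helicase, by 2.59 (SE 0.89, adjusted p = 0.0364), each with 0 reads in C2-/- replicate 2. With the GC correction *Mki67* was at 1.92 (adjusted p = 0.0649), *Aurka* at -2.71 (adjusted p = 0.0544) and *Mcm3* at -1.99 (adjusted p = 0.113). The call of *Aurka* was lost without WT replicate 2, that of *Mki67* without WT replicate 1 or 3 or C2-/- replicate 2, and that of *Mcm3* without WT replicate 1, 2 or 3 or C2-/- replicate 2 or 3. In these fits the change was -2.92 for *Aurka* and 1.98 to 2.08 for *Mki67*. For *Mcm3* it was -2.48 to -2.60 without a WT library, and -1.81 and -2.17 without C2-/- replicates 2 and 3. The count of 9 was 4 without WT replicate 2 or WT replicate 3, and 5 without WT replicate 1 or C2-/- replicate 2.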
